A study of Mus musculus with 12 samples.

Results

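Transcripts of 32 hypothalamic neuropeptide genes were followed in sorted cells from cultured embryonic mouse hypothalamus. The genes were taken from a list of peptides that hypothalamic neurons release (Npy, Agrp, Sst, Trh, Crh, Gnrh1, Ghrh, Avp, Oxt, Penk, Pnoc, Tac1, Tac2, Gal, Nts, Cck, Nmb, Grp, Nmu, Nms, Vip, Adcyap1, Npvf, Npff, Prlh, Npb, Npw, Nucb2, Ucn3, Pthlh, Nppc and Rln3), and Pmch, Hcrt, Pdyn, Cartpt and Pomc were left out. All 32 were found among the 48709 gene identifiers counted, and 31 had at least 1 read. No measured value entered the choice of the genes, but the list was drawn up with earlier results of these data known.

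All 12 libraries came from C57BL/6 hypothalamus of embryonic day 18. Cells were dissociated, given a virus at a multiplicity of infection of 10, and cultured as neurospheres, floating clusters of neural progenitors and their progeny, with basic fibroblast growth factor at 10 ng/ml. After a week they were sorted by fluorescence into 4 groups of 3 libraries. The mCherry-positive and mCherry-negative groups come from cultures given an adeno-associated virus that carried the HCRT reporter (hypocretin, also called orexin). The EGFP-positive and EGFP-negative groups come from cultures given a lentivirus that carried the MCH reporter (melanin-concentrating hormone). The negative cells of each sort had the same virus and culture as the positive cells, and no group went without a virus. The promoter that drives each reporter is not given in the sources used here. Amplified cDNA was made from 0.8 ng of RNA in the mCherry sort and from 2 ng in the EGFP sort, so virus, reporter and RNA input cannot be told apart in any comparison between the sorts.

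Neuropeptides are cut from larger precursor proteins by prohormone convertases and carboxypeptidases in dense-core vesicles, and most act on receptors coupled to G proteins. In the hypothalamus they control feeding, fluid balance, sleep and the release of pituitary hormones, and a mature peptide neuron usually holds its precursor mRNA at a very high level. Some of their promoters carry a cAMP response element, the site bound by CREB-family factors, whose full form is TGACGTCA and whose core is TGACG.

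The promoters of 5 members on which the results below turn are shown first: Npy, highest or next to highest by length-adjusted level in every group, Sst and Nucb2, which were lower in EGFP-positive cells, and Cck and Gal, which differed in opposite directions between the sorts. For Npy, Nucb2, Cck and Gal the 120 bases before the start are given, and for Sst 30 bases around its full site, all 5′ to 3′ on the gene's strand, from RefSeq on GRCm38.p6. Capitals mark the core TGACG on either strand, and in Sst the full site.
Npy promoter (chr6:49822590-49822709, plus strand): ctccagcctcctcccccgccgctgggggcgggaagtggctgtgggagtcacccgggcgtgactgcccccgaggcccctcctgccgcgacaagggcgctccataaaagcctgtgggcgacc
Sst promoter, 30 bases (chr16:23890874-23890903, minus strand): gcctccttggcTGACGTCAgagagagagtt
Nucb2 promoter (chr7:116504249-116504368, plus strand): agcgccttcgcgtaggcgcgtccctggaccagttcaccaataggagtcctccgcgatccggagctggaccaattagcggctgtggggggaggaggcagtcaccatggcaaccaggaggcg
Cck promoter (chr9:121495695-121495814, minus strand): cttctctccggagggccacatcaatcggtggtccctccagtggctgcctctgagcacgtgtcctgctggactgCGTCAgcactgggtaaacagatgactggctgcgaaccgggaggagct
Gal promoter (chr19:3414545-3414664, minus strand): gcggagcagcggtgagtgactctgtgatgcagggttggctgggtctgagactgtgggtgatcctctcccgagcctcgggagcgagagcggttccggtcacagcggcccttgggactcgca
RefSeq promoters were found for 23 of the 32 members, 25 promoters in all. The core, searched on both strands within the 120 bases, stood in 9 of the 25 (36%), against 3829 of all 32851 promoters in that table (11.7%). The full TGACGTCA, which contains the core on both strands, was found in Sst alone of these 25 (4%), against 407 of all promoters (1.24%). Its first base lies at -48 from the start, and the core in Cck, on the opposite strand, begins at -47. A match is a description of the letters and not of a bound site. RefSeq starts Sst further downstream than GENCODE M21 does, so the Sst stretch lies inside the GENCODE extent of the gene given below.

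Together the 32 genes took a small part of each library, from 0.00672% to 0.0280% of gene reads. A library held 16.3 to 32.9 M (megareads) of reads in genes, and levels are given as CPM, counts for each megaread in genes. The summed level was 143 ± 66.1 CPM in mCherry-positive cells, 155 ± 110 CPM in mCherry-negative cells, 94.3 ± 21.0 CPM in EGFP-positive cells and 128 ± 18.8 CPM in EGFP-negative cells (SD, n = 3 each). In each library 23 to 29 members had reads, and Prlh, the gene of prolactin-releasing peptide, had none in any of the 12. A count of 0 allows up to 3 reads, which for Prlh is 0.0912 CPM in the deepest library. Such limits and all count intervals cover counting error only, because without molecular identifiers several reads can stem from 1 molecule by PCR. Of the members, 19 reached a mean of 1 CPM in at least 1 group, 9 reached 5 CPM and 6 reached 10 CPM.

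As a check of the labelled neural tissue, all 11 neuronal markers (Tubb3, Snap25, Stmn2 and others) had reads in every library. Markers of other cells were also present. The 8 astrocyte markers summed to 4799 to 19666 CPM and the 8 oligodendrocyte markers to 1754 to 6204 CPM over the 12 libraries. Whether the replicates of a group are separate cultures is not in the labels, and p-values measure the spread between these libraries alone, which may be technical.

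**Figure D1:**
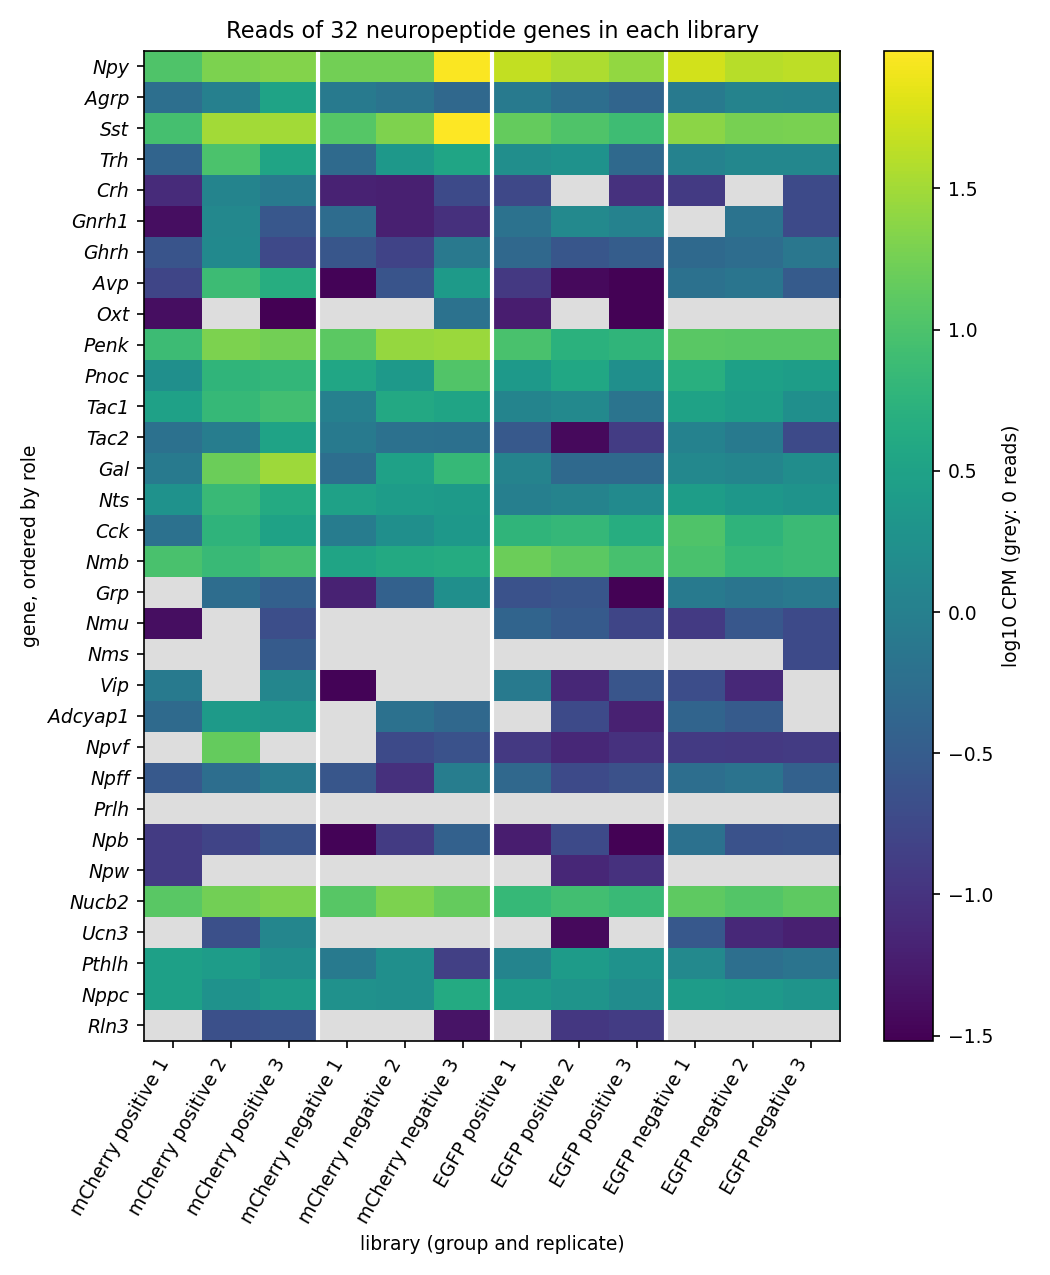
Level of each of the 32 genes (rows, ordered by role) in each of the 12 libraries (columns, grouped from left to right by sort, positive before negative), as log10 CPM in colour, with grey for 0 reads. Npy, Sst, Penk, Nucb2 and Nmb are bright in all columns, Prlh is grey throughout, Gal and Avp are brightest in a pair of mCherry-positive columns, and Npvf stands out in a single one.

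Divided by exonic length, Npy and Sst were the most abundant members in the mCherry sort and Npy in the EGFP sort. Npy, whose peptide drives feeding, reached 30.4 ± 10.3 CPM per kb in mCherry-positive cells and 75.3 ± 77.0 CPM per kb in mCherry-negative cells, and 63.3 ± 17.0 CPM per kb in EGFP-positive cells and 82.7 ± 14.4 CPM per kb in EGFP-negative cells (SD, n = 3 each). Sst, the gene of somatostatin, reached 33.5 ± 18.1 and 59.8 ± 65.2 CPM per kb in mCherry-positive and mCherry-negative cells, and 15.2 ± 4.66 and 28.6 ± 4.05 CPM per kb in EGFP-positive and EGFP-negative cells. The spread within mCherry-negative cells is as large as the mean for both genes, so their order against each other there is not resolved. Nmb, the gene of neuromedin B, was next in EGFP-positive cells at 16.0 ± 4.24 CPM per kb, within 1 SD of Sst at 15.2 CPM per kb. In mCherry-positive cells the third place went to Gal, the gene of galanin, at 19.9 ± 18.6 CPM per kb, against 4.41 ± 3.97 in mCherry-negative cells, 0.882 ± 0.463 in EGFP-positive cells and 1.73 ± 0.261 CPM per kb in EGFP-negative cells. Penk ranked 3 to 5 over the groups, at 4.25 to 14.0 CPM per kb, and Nucb2 ranked 4 to 7, at 3.18 to 7.09 CPM per kb. Levels compared between genes rest on the exon lengths of GENCODE M21.

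In EGFP-positive cells, 2 of the 18 members that passed the filter on low counts were lower than in EGFP-negative cells and 0 were higher. They were Sst, which restrains growth hormone release, and Nucb2, the precursor of nesfatin-1. This is 11.1% of the members tested, against 16.1% of all genes called in this comparison, 8.99% higher and 7.07% lower. A call is an adjusted p under 0.05 in edgeR's quasi-likelihood test. The median log2 fold change of the 18 was -0.65, against -0.01 for all genes tested, and 14 of the 18 had a negative sign. In bulk RNA, fewer cells of a type and less RNA in each cell cannot be told apart.

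Sst (ENSMUSG00000004366, GRCm38 chromosome 16, 23889573 to 23890958, minus strand, 2 exon blocks) stood at 14.6, 10.5 and 7.89 CPM in EGFP-positive libraries and at 24.0, 18.8 and 19.0 CPM in EGFP-negative libraries. All EGFP-positive values lie below all EGFP-negative ones. This is a log2 fold change of -0.81 ± 0.23 (SE), adjusted p 0.039. Nucb2 (ENSMUSG00000030659, chromosome 7, 116504369 to 116540584, plus strand) stood at 6.81, 8.33 and 7.11 CPM in EGFP-positive libraries and at 13.3, 11.3 and 13.3 CPM in EGFP-negative libraries, again without overlap. The log2 fold change was -0.66 ± 0.18 (SE), adjusted p 0.035. Neither call withstood the removal of most single libraries. Without EGFP-positive replicate 2 or 3, or EGFP-negative replicate 1, 2 or 3, the adjusted p of Sst was 0.144, 0.0710, 0.153, 0.0940 and 0.0921, and that of Nucb2 was 0.0791, 0.0698, 0.126, 0.0793 and 0.119, with the direction kept in each. With any single library left out, 0 to 7 members were called, beside 6.72% to 30.9% of all genes, and with no filter the adjusted p of Nucb2 was 0.0590.

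Neuronal markers moved the same way in this sort: their sum was 928 to 1145 CPM in EGFP-positive libraries, below the 1540 to 1556 CPM of EGFP-negative libraries, and 8 of 11 were lower. Of 8 astrocyte markers, 7 were higher and 1 was lower in EGFP-positive cells, with sums of 15965 to 19666 CPM in EGFP-positive against 9013 to 9305 CPM in EGFP-negative libraries. Markers of 3 further cell types were mostly lower in EGFP-positive cells. Of 8 oligodendrocyte markers 7 were lower, with sums of 1754 to 1833 CPM in EGFP-positive and 5266 to 5551 CPM in EGFP-negative libraries. Of 7 microglial markers 6 were lower and 1 was higher, with sums of 7.10 to 8.10 CPM in EGFP-positive and 33.2 to 44.8 CPM in EGFP-negative libraries. Of 9 mesenchymal and mural markers 5 were lower and 2 higher, with sums of 148 to 162 CPM in EGFP-positive and 389 to 423 CPM in EGFP-negative libraries. Of 7 markers of tanycytes and ependymal cells 3 were higher and 0 lower, with sums of 207 to 248 CPM in EGFP-positive and 139 to 147 CPM in EGFP-negative libraries. The part of these lists in the fall of Sst and Nucb2 was not tested.

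The other members with clear levels in the EGFP sort were not called. Npy (ENSMUSG00000029819, chromosome 6, 49822710 to 49829507, plus strand) stood at 45.6, 35.5 and 26.4 CPM in EGFP-positive libraries and at 56.1, 40.9 and 43.4 CPM in EGFP-negative libraries. The groups overlap, and its log2 fold change was -0.28 ± 0.21 with an adjusted p of 0.392. Without EGFP-positive replicate 1, the highest of that group, the adjusted p of Npy was 0.0486 at a log2 fold change of -0.47, and over all 12 alternatives it ran from 0.0486 to 0.790. Agrp, the melanocortin antagonist made by the same arcuate neurons as Npy, was at 0.420 to 0.822 CPM in EGFP-positive and 0.811 to 1.12 CPM in EGFP-negative libraries. Gm5914 and, on the opposite strand, Ctcf each share 11.3% of the exonic bases of Agrp, and how reads there were assigned is uncertain.

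Penk (ENSMUSG00000045573, chromosome 4, 4133531 to 4138819, minus strand), the enkephalin precursor, stood at 9.69, 5.28 and 5.89 CPM in EGFP-positive libraries and at 12.2, 11.9 and 11.8 CPM in EGFP-negative libraries. The groups do not overlap, and the log2 fold change of -0.69 ± 0.24 had an adjusted p of 0.0776, which DESeq2 gave as 0.0386 and limma-voom as 0.0426. Without EGFP-positive replicate 1 it was 0.00198, and over all 12 alternatives it ran from there to 0.272. DESeq2 called 5 of the members tested here and 21.6% of all genes, and limma-voom 4 members and 16.9% of all genes. An antisense gene, A830012C17Rik, shares 14.3% of the exonic bases of Penk, and the strand setting of the counting is not given in the sources used here, so reads of both cannot be told apart there. Pnoc, the nociceptin precursor, stood at 2.41, 3.68 and 1.68 CPM in EGFP-positive libraries and at 4.90, 2.95 and 2.70 CPM in EGFP-negative libraries, which overlap.

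Tac1, the precursor of substance P and neurokinin A, stood at 1.17, 1.38 and 0.679 CPM in EGFP-positive libraries and at 3.20, 2.75 and 1.72 CPM in EGFP-negative libraries. The groups do not overlap, and the log2 fold change was -1.16 ± 0.40 with an adjusted p of 0.0805 (0.0462 in DESeq2). Nts, the neurotensin gene, stood at 0.998, 1.12 and 1.46 CPM in EGFP-positive libraries against 2.68, 2.21 and 1.90 CPM in EGFP-negative libraries, and Gal at 1.12, 0.483 and 0.485 CPM in EGFP-positive against 1.30, 1.20 and 1.60 CPM in EGFP-negative libraries. Both pairs of groups were apart, with log2 fold changes of -0.81 ± 0.34 for Nts and -0.90 ± 0.48 for Gal and adjusted p of 0.145 and 0.243. Cck, the cholecystokinin gene, stood at 6.05, 6.65 and 4.59 CPM in EGFP-positive libraries and at 10.4, 5.70 and 7.49 CPM in EGFP-negative libraries, which overlap.

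Nmb (ENSMUSG00000025723, chromosome 7, 80902227 to 80905076, minus strand) had the opposite sign. It stood at 16.0, 12.8 and 9.25 CPM in EGFP-positive libraries and at 9.69, 6.67 and 7.55 CPM in EGFP-negative libraries. The lowest EGFP-positive library lies just under the highest EGFP-negative one, and the log2 fold change of 0.77 ± 0.24 had an adjusted p of 0.0557. DESeq2 gave 0.0175, the fit with no filter 0.0219, and the fit without EGFP-positive replicate 3 gave 0.0153, while over all 12 alternatives it ran from 0.0153 to 0.194. Sec11a, on the same strand, shares 20.6% of the exonic bases of Nmb, and how reads there were assigned is uncertain.

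Among the members tested, 8 of 18 lay wholly below in EGFP-positive libraries (Sst, Ghrh, Gal, Tac1, Nts, Grp, Penk and Nucb2) and 0 lay wholly above. That is 44.4% of the members, against 37.9% of all genes tested whose groups did not overlap, 24.5% below and 13.4% above. These CPM are unscaled, and the TMM scaling factors of the fit were 0.949 to 0.980 for EGFP-positive and 1.03 to 1.04 for EGFP-negative libraries, which brings fitted values of the groups closer. Grp, the gastrin-releasing peptide gene, stood at 0.235, 0.260 and 0.0323 CPM in EGFP-positive libraries and at 0.851, 0.698 and 0.798 CPM in EGFP-negative libraries, with a log2 fold change of -2.09 ± 0.68 and an adjusted p of 0.0668. Ghrh was at 0.260 to 0.470 CPM in EGFP-positive and 0.486 to 0.737 CPM in EGFP-negative libraries. Grp passed the filter through the EGFP-negative libraries where it is high, and Ghrh largely so. Their lower place in EGFP-positive libraries is thus partly built into the filter, and neither is independent support for the count of 8. Gnrh1, the gene of the hormone that releases gonadotropins, and Pthlh, a parathyroid hormone relative, had positive values that missed the threshold, with log2 fold changes of 1.95 ± 0.87 and 1.19 ± 0.47 and adjusted p of 0.164 and 0.121. Trh, Ghrh (the gene of the hormone that releases growth hormone), Npff (neuropeptide FF) and Nppc (C-type natriuretic peptide) were not called either, with log2 fold changes of 0.21 ± 0.51, -0.65 ± 0.52, -0.83 ± 0.59 and -0.14 ± 0.31. Gm28047, on the same strand, shares 32.6% of the exonic bases of Npff. How reads there were assigned is uncertain in both sorts.

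**Figure D2:**
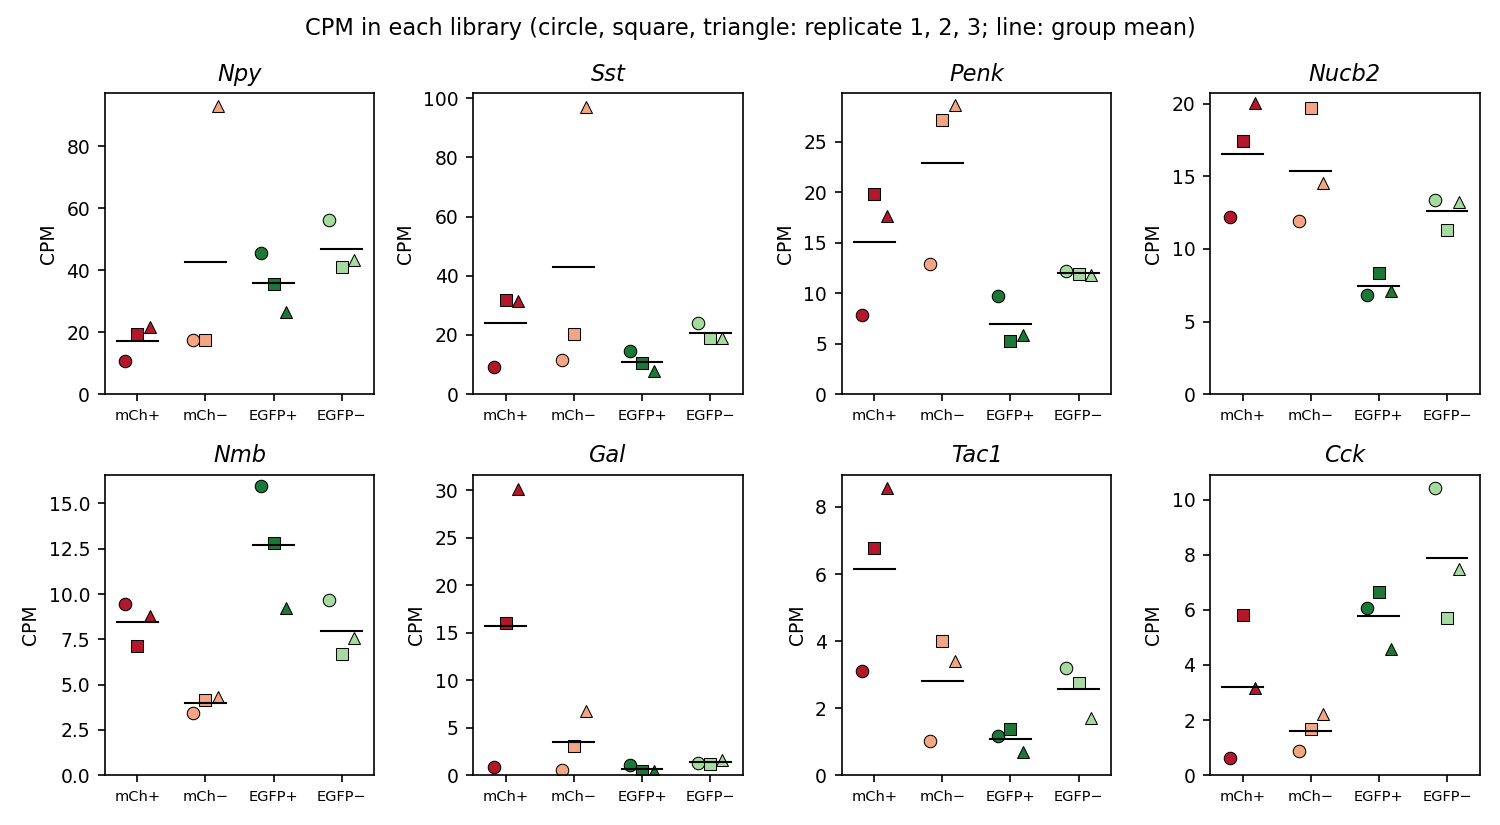
CPM (linear axes from 0) of 8 members in every library, with mCh for mCherry and + and − for positive and negative cells; circle, square and triangle are replicates 1, 2 and 3 and the line is the group mean. Sst and Nucb2 are lower in all EGFP-positive than in all EGFP-negative libraries, Nmb is higher in all mCherry-positive than in all mCherry-negative libraries, and Npy and Sst have their highest value in mCherry-negative replicate 3.

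In mCherry-positive cells, none of the 19 members tested was called against mCherry-negative cells by edgeR. An unadjusted p under 0.05 was found for 1 of the 19, against 18.6% of all genes. DESeq2 called 1 member (Nmb) and limma-voom 0. Of all genes, 1.2% were called by edgeR (0.541% higher and 0.656% lower), 10.1% by DESeq2 and 1.42% by limma-voom. The median log2 fold change of the 19 was 0.97, against 0.02 for all genes tested, and 13 had a positive sign. The spread between libraries was wide in this sort, with a common coefficient of variation of 0.382, against 0.189 in the EGFP sort.

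Nmb stood at 9.48, 7.15 and 8.79 CPM in mCherry-positive libraries and at 3.42, 4.14 and 4.33 CPM in mCherry-negative libraries. It was the one member of the 19 whose groups did not overlap, 5.26% of them against 25.3% of all genes tested. Its log2 fold change of 1.07 ± 0.34 had an adjusted p of 0.147, and of 0.0372 in DESeq2. The value was 0.95 to 1.18 when any single library was left out.

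The highest values of Npy and Sst in this sort came from 1 library. Npy stood at 10.6, 19.5 and 21.6 CPM in mCherry-positive libraries and at 17.3, 17.6 and 92.9 CPM in mCherry-negative libraries. Sst stood at 9.11, 31.8 and 31.6 CPM in mCherry-positive libraries and at 11.7, 20.5 and 97.2 CPM in mCherry-negative libraries. In both genes mCherry-negative replicate 3 was far above the other 5 libraries, and the groups overlap. The log2 fold changes of -1.33 ± 0.60 for Npy and -0.87 ± 0.71 for Sst had adjusted p of 0.274 and 0.545. When mCherry-negative replicate 3 was left out, they were -0.04 and 0.55.

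Galanin and vasopressin transcripts were high in 2 of the 3 mCherry-positive libraries. Gal (ENSMUSG00000024907, chromosome 19, 3409915 to 3414544, minus strand) stood at 0.858, 16.0 and 30.2 CPM in mCherry-positive libraries and at 0.560, 3.10 and 6.78 CPM in mCherry-negative libraries. Avp (ENSMUSG00000037727, chromosome 2, 130580620 to 130582554, minus strand), whose peptide retains water at the kidney, stood at 0.163, 7.72 and 4.68 CPM in mCherry-positive libraries and at 0.0329, 0.245 and 2.49 CPM in mCherry-negative libraries. For both genes mCherry-positive replicates 2 and 3 were high and replicate 1 lay within the range of the mCherry-negative libraries. Their log2 fold changes were 2.12 ± 1.05 and 2.18 ± 1.36, with adjusted p of 0.31 and 0.421. Without mCherry-positive replicates 2 and 3, which leaves 1 positive library assumed to vary like the others, they were -1.97 for Gal and -2.40 for Avp.

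Trh, whose peptide releases thyrotropin, was at 0.408, 10.0 and 3.34 CPM in mCherry-positive libraries and at 0.494, 2.24 and 3.46 CPM in mCherry-negative libraries, and Adcyap1, the PACAP gene, at 0.490, 2.44 and 2.10 CPM in mCherry-positive against 0, 0.614 and 0.461 CPM in mCherry-negative libraries. Tac1 was at 3.10, 6.77 and 8.57 CPM in mCherry-positive libraries and at 1.02, 3.99 and 3.41 CPM in mCherry-negative libraries. Replicate 1 was the lowest of the mCherry-positive libraries in all 3 genes, and none of them was called. Tac1 had a log2 fold change of 1.09 ± 0.58 with an adjusted p of 0.346.

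The other members with clear levels overlapped between the mCherry groups. Penk stood at 7.80, 19.9 and 17.7 CPM in mCherry-positive libraries and at 12.9, 27.2 and 28.6 CPM in mCherry-negative libraries, and its log2 fold change was -0.64 ± 0.40. Nucb2 stood at 12.2, 17.4 and 20.04 CPM in mCherry-positive libraries and at 11.9, 19.7 and 14.5 CPM in mCherry-negative libraries, with a log2 fold change of 0.07 ± 0.29. Pnoc was at 1.67, 6.01 and 6.38 CPM in mCherry-positive libraries and at 3.56, 2.42 and 10.8 CPM in mCherry-negative libraries. The adjusted p of these 3 genes were 0.42, 0.922 and 0.847. Cck was at 0.613, 5.82 and 3.16 CPM in mCherry-positive libraries against 0.889, 1.69 and 2.21 CPM in mCherry-negative libraries, and Nts at 1.84, 7.18 and 4.17 CPM in mCherry-positive against 3.06, 2.67 and 2.49 CPM in mCherry-negative libraries. Cck had a log2 fold change of 0.97 ± 0.76 and Nts one of 0.65 ± 0.53. The 6 further members tested were low, and none was called: Agrp, Tac2 and Pthlh had log2 fold changes of 1.26 ± 0.78, 1.18 ± 0.77 and 1.38 ± 0.81, and Grp, Npff and Nppc of -1.23 ± 1.32, 0.39 ± 0.96 and -0.10 ± 0.55.

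The highest values of the members were spread unevenly over the libraries of the mCherry sort. Of the 31 members with reads, 10 were highest of the 6 libraries in mCherry-positive replicate 3, 9 in mCherry-positive replicate 2, 9 in mCherry-negative replicate 3 and 3 in mCherry-positive replicate 1, and none in mCherry-negative replicates 1 and 2. In the EGFP sort, EGFP-negative replicate 1 held the highest value of 14 members. These counts include members with few reads, such as Npw with 3 in the mCherry sort. The share of all genes highest in each library was not measured, so the counts cannot be read as a trait of the members.

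Markers of the anterior pituitary moved with these libraries. The 12 markers summed to 5.76, 228 and 1302 CPM in mCherry-positive replicates 1, 2 and 3, against 3.98, 31.0 and 91.0 CPM in mCherry-negative replicates 1, 2 and 3. Tshb, the thyrotropin subunit gene, accounted for 673 CPM and Cga, the shared glycoprotein hormone subunit gene, for 436 CPM in mCherry-positive replicate 3. Hesx1, a factor of the early pituitary, was at 0 in every library, and Fshb was at 0 in 11 of 12. In the EGFP sort the sums were 19.0 to 29.0 CPM in EGFP-positive libraries, below the 68.7 to 77.2 CPM of EGFP-negative libraries, and 3 of the 12 markers were lower. Neuronal markers in the mCherry sort summed to 1215 CPM in mCherry-positive replicate 1, to 2162 to 2569 CPM in the other two, and to 1706 to 2361 CPM in mCherry-negative libraries, with 0 of 11 called. The 7 microglial markers ran differently, with 596, 70.0 and 80.3 CPM in mCherry-positive replicates 1, 2 and 3, against 25.7, 39.7 and 116 CPM in mCherry-negative replicates 1, 2 and 3. The 8 astrocyte markers summed to 13478, 9634 and 10232 CPM in mCherry-positive replicates 1, 2 and 3, against 8174, 8521 and 4799 CPM in mCherry-negative replicates 1, 2 and 3. So mCherry-positive replicate 1 was highest of the 6 libraries in both sums, and mCherry-negative replicate 3, where Npy and Sst were highest, was lowest in the astrocyte sum. The 7 tanycyte and ependymal markers summed to 225, 185 and 201 CPM in mCherry-positive against 94.9, 78.0 and 66.5 CPM in mCherry-negative replicates 1, 2 and 3. In this sum and the astrocyte sum, all mCherry-positive libraries lay above all mCherry-negative ones. The oligodendrocyte sums and the mesenchymal and mural sums overlapped between these groups. The part of these lists in the values of Npy, Sst, Gal, Avp, Trh and Adcyap1 was not tested.

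**Figure D3:**
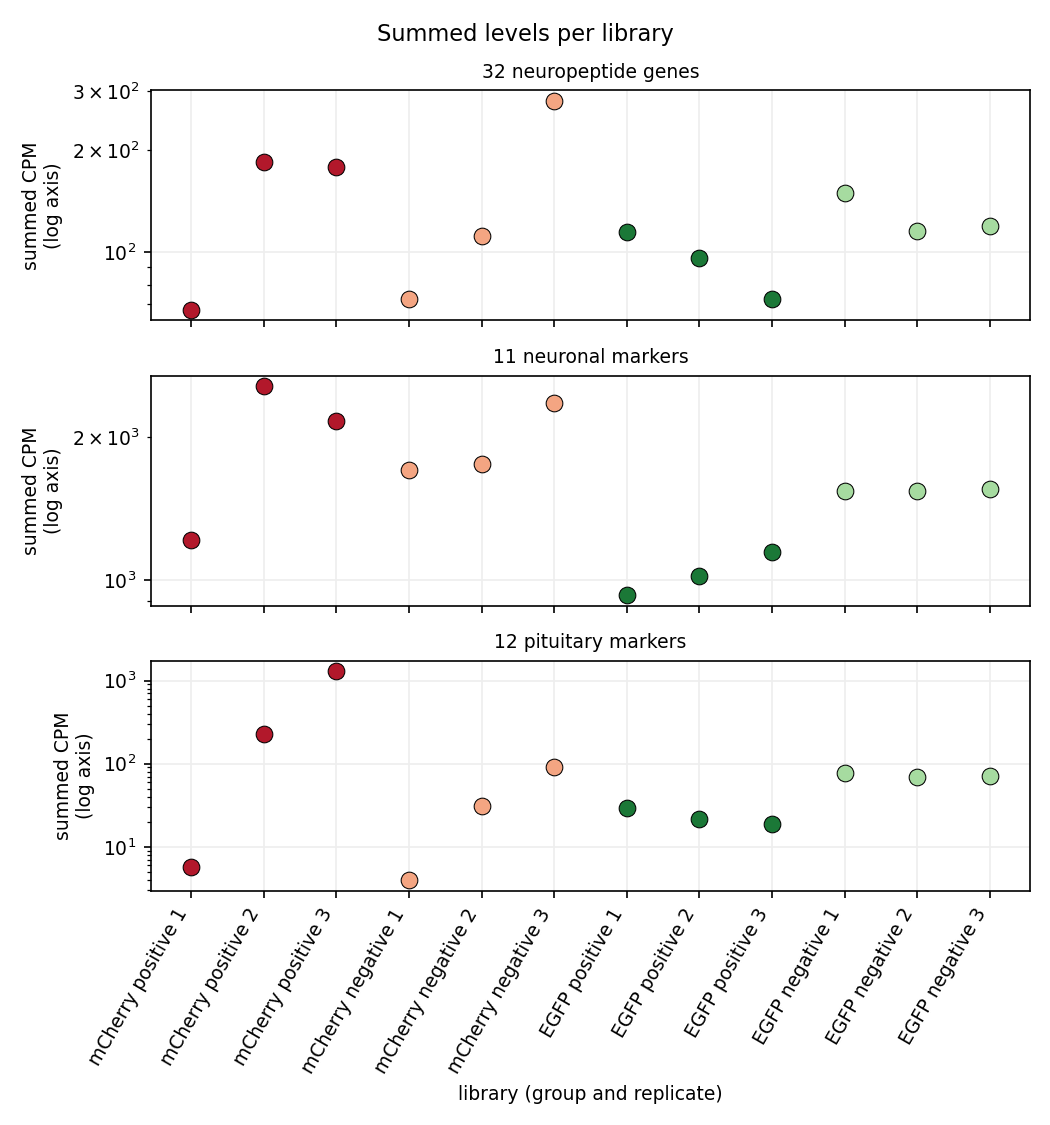
Summed CPM (log axes) of the 32 neuropeptide genes, of 11 neuronal markers and of 12 pituitary markers in each of the 12 libraries, coloured by group. Among mCherry-positive libraries, replicate 1 is lowest in all 3 panels (67.2, 1215 and 5.76 CPM), and the pituitary sum reaches 1302 CPM in replicate 3.

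Members too low for the filter were compared by summed reads and an exact 2-sided permutation test, whose smallest possible p with 3 against 3 libraries is 0.1. In the mCherry sort 13 members fell below the filter, and none had groups apart, against 6.08% of genes below the filter. Npvf, which encodes RFamide-related peptides, had 463 reads (14.6 CPM) in mCherry-positive replicate 2, 0 in replicates 1 and 3, and 11 in all mCherry-negative libraries. Its permutation p was 1. Crh, the gene of the hormone that releases corticotropin, had 66 reads in mCherry-positive and 8 in mCherry-negative libraries, a ratio of 7.85 (95% interval 3.76 to 18.9). Vip had 61 reads in mCherry-positive libraries, none of them in replicate 2, and 1 in mCherry-negative libraries, a ratio of 58.0 (10.0 to 2329). Ucn3, a ligand of the receptor Crhr2, had 47 reads in mCherry-positive and 0 in mCherry-negative libraries, and the 95% interval of its ratio starts at 11.7. Of these 47 reads 40 were in mCherry-positive replicate 3, 7 in replicate 2 and 0 in replicate 1. The exact permutation p of these 3 genes was 0.2, 0.4 and 0.4, and the groups overlap in each. Oxt, the oxytocin gene, had 2 reads in mCherry-positive and 14 in mCherry-negative libraries, all 14 in replicate 3. The other members below the filter (Gnrh1, Ghrh, Npb, Rln3, Nms, Nmu, Npw and Prlh) had 0 to 56 reads over mCherry-positive and 0 to 30 over mCherry-negative libraries, and all overlapped. Gnrh1 and Ghrh, the most abundant of these, had 52 and 56 reads over mCherry-positive libraries and 20 and 30 over mCherry-negative ones. Of the 52 and 56 reads, 42 and 44 were in mCherry-positive replicate 2. Of the 20 Gnrh1 reads in mCherry-negative libraries, 16 were in replicate 1.

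In the EGFP sort 14 members fell below the filter, and 3 of them (Avp, Npb and Ucn3) were lower in every EGFP-positive than in every EGFP-negative library, against 8.08% of genes below the filter whose groups were apart either way. Avp had 4 reads over EGFP-positive libraries and 38 over EGFP-negative ones, a ratio of 0.0939 (0.0243 to 0.261). Npb, a ligand of the receptor Npbwr1, had 7 reads over EGFP-positive and 25 over EGFP-negative libraries, with a ratio of 0.250 (0.0912 to 0.594), and Ucn3 had 1 over EGFP-positive and 10 over EGFP-negative libraries. The exact permutation p was 0.1 for each of the 3. Tac2, the neurokinin B gene, had 10 reads over EGFP-positive and 51 over EGFP-negative libraries but overlapped, and Rln3, the relaxin-3 gene, had 7 over EGFP-positive and 0 over EGFP-negative libraries. The other members below the filter in this sort (Oxt, Crh, Vip, Nmu, Nms, Npvf, Adcyap1, Npw and Prlh) had 0 to 24 reads in a group.

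**Figure D4:**
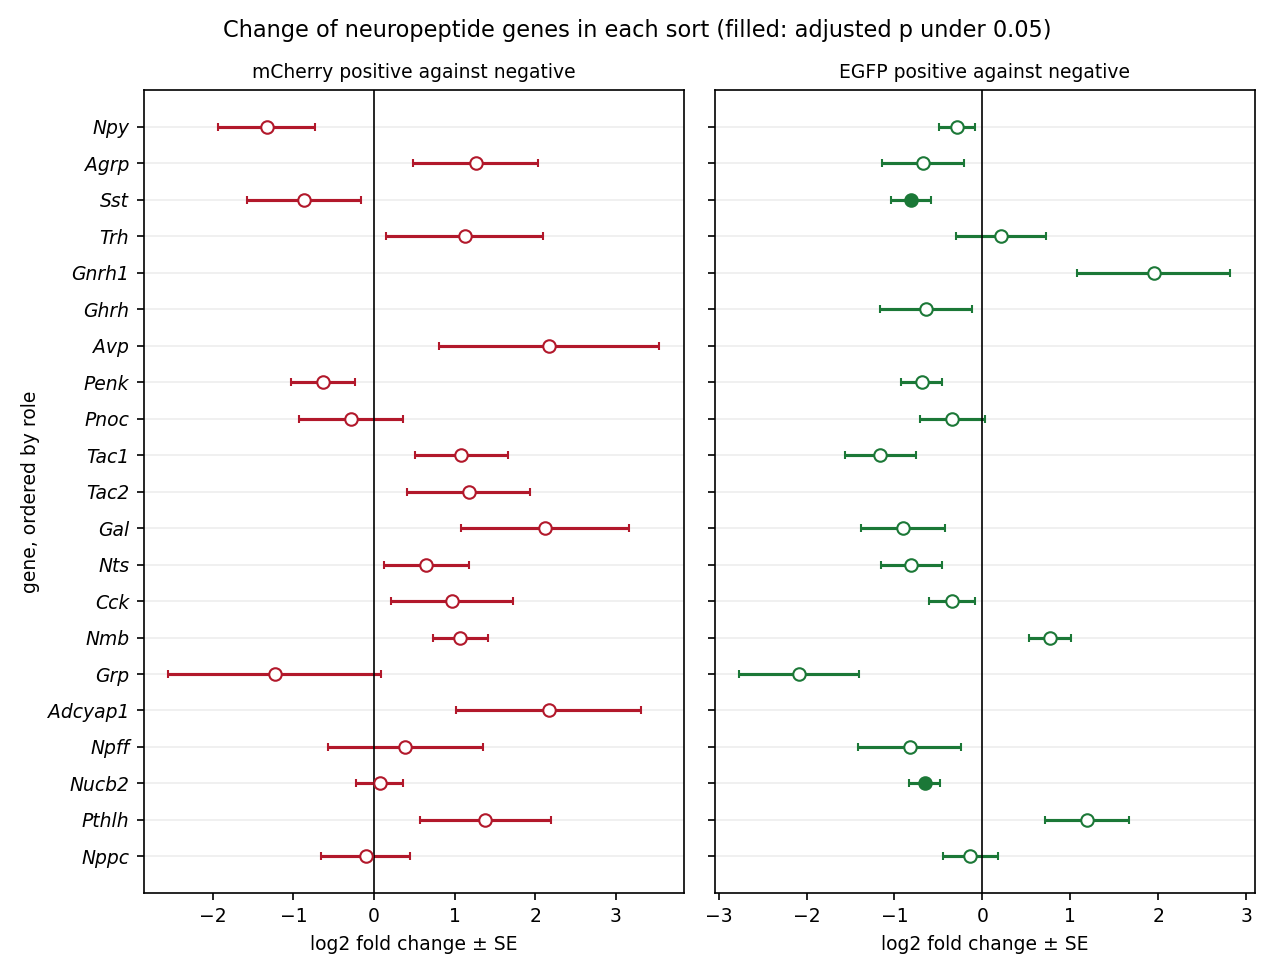
Log2 fold change with its SE of each member that passed the filter, mCherry-positive against mCherry-negative cells on the left and EGFP-positive against EGFP-negative cells on the right, with filled points for an adjusted p under 0.05. Sst and Nucb2 are filled at -0.81 and -0.66 in the EGFP sort, no point is filled in the mCherry sort, and the error bars there are wider.

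The reporter effects themselves were then set against each other, as the mCherry effect minus the EGFP effect in 1 fit of all 12 libraries. None of the 22 members tested was called by edgeR, against 1.44% of all genes (0.886% higher and 0.559% lower), and 5 had an unadjusted p under 0.05, as did 15.1% of all genes. DESeq2 and limma-voom called 0 as well, against 5.37% and 1.08% of all genes. The 5 were Avp, Gal, Tac1, Tac2 and Nts, with differences in log2 of 5.23 ± 1.91, 3.00 ± 1.33, 2.21 ± 0.74, 3.30 ± 1.21 and 1.44 ± 0.63 and adjusted p of 0.167 to 0.3. Avp and Tac2 were below the filter in the EGFP sort, with 4 against 38 and 10 against 51 reads in positive against negative libraries. Both entered this fit through the mCherry libraries, and their EGFP effects rest on few reads. Tac2 stood at 0.613, 0.917 and 3.25 CPM in mCherry-positive libraries, so its mCherry side rests largely on replicate 3. When mCherry-negative replicate 3 was left out, the adjusted p of Avp was 0.0408, and over 19 alternatives it ran from 0.0382 to 0.940. The highest came without mCherry-positive replicates 2 and 3, where the Avp difference was 0.61. For Sst the difference was -0.09 ± 0.86 and for Penk 0.02 ± 0.50, so the direction was not resolved for either gene. The Nmb difference was 0.27 ± 0.37.

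Between the sorts, 8 of the 22 members tested differed when the positive and negative cells of each were averaged. That is 36.4% of the members, against 18.5% of all genes, 10.5% higher and 8.04% lower. Transcripts of Gal, Avp, Tac1, Nts, Penk and Nucb2 were higher in the mCherry sort, and those of Cck and Nmb were lower. The largest difference was that of Avp, 3.34 ± 0.96 on the log2 scale with an adjusted p of 0.0271, and Gal was next at 2.85 ± 0.68 with an adjusted p of 0.0102. Avp was below the filter in the EGFP sort, with 4 reads over EGFP-positive and 38 over EGFP-negative libraries. It entered this fit through the mCherry libraries where it is high. A higher value in the mCherry sort is thus partly built into the filter, and the Avp call is no independent support for the count of 8. Tac1 differed by 1.25 ± 0.37, Nts by 1.00 ± 0.32, Penk by 0.96 ± 0.25 and Nucb2 by 0.65 ± 0.17, with adjusted p of 0.0171 to 0.0418. Cck (ENSMUSG00000032532, chromosome 9, 121489824 to 121495694, minus strand) differed by -1.65 ± 0.41 with an adjusted p of 0.0124, and Nmb by -0.86 ± 0.19 with an adjusted p of 0.00583.

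Cck averaged 3.20 ± 2.60 CPM in mCherry-positive and 1.60 ± 0.666 CPM in mCherry-negative cells, against 5.76 ± 1.06 CPM in EGFP-positive and 7.87 ± 2.38 CPM in EGFP-negative cells (SD, n = 3 each). Without mCherry-positive replicates 2 and 3, in which Gal and Avp were high, the fit has fewer libraries and the single member called was Cck (log2 difference -2.82), while 8.68% of all genes were called. In that fit Nmb was at -0.77 with an adjusted p of 0.0602, and Gal was at 0.79 and Avp at 1.03. Limma-voom called 4 of the 8 (Cck, Nmb, Nucb2 and Penk) and 17.8% of all genes, and DESeq2 called 9 members and 24.6% of all genes. With any single library left out, 4 to 9 members were called, beside 11.9% to 20.9% of all genes, and Gal, Cck and Nmb were among them each time. Avp missed the threshold (adjusted p 0.0504 to 0.112) without mCherry-positive replicate 2 or 3, mCherry-negative replicate 3, EGFP-positive replicate 2 or 3, or any 1 EGFP-negative library. Nts missed it (0.0645 to 0.130) without any 1 EGFP-negative library, mCherry-positive replicate 2 or 3, mCherry-negative replicate 1 or 2, or EGFP-positive replicate 1 or 2. Tac1 missed it (0.0523 to 0.0823) without any 1 EGFP-negative library, mCherry-positive replicate 2 or 3, mCherry-negative replicate 2, or EGFP-positive replicate 1 or 3. Nucb2 missed it without mCherry-positive replicate 3, mCherry-negative replicate 2 or EGFP-negative replicate 2 (0.0514 to 0.0559), and Penk without mCherry-positive replicate 2 or EGFP-positive replicate 2 (0.0502 and 0.0566). With single libraries left out the differences themselves were 1.05 to 1.44 for Tac1, 0.70 to 1.17 for Nts, 0.51 to 0.72 for Nucb2 and 0.81 to 1.10 for Penk. That of Avp was 2.02 to 3.64, lowest without mCherry-negative replicate 3. Reporter, virus and RNA input differ between the sorts and cannot be told apart.

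**Figure D5:**
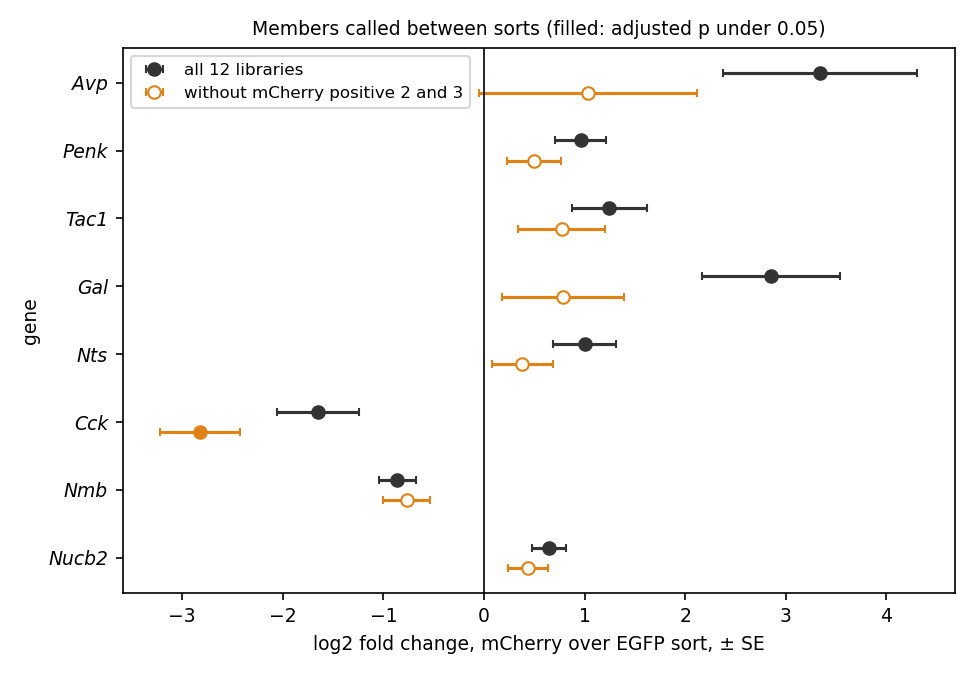
Log2 difference with its SE, mCherry sort over EGFP sort, of the 8 members called between the sorts, with all 12 libraries (black) and without mCherry-positive replicates 2 and 3 (orange); filled points have an adjusted p under 0.05. Without those libraries only Cck, at -2.82, is filled, and the positive differences of Avp and Gal shrink to 1.03 and 0.79.

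Receptors for these peptides were read from a list of 48 genes, of which 47 were found. In EGFP-positive cells 3 were higher and 3 were lower of 27 tested, beside 16.1% of all genes called. Cckbr, the brain receptor of cholecystokinin, was higher, at 16.3 ± 1.58 CPM in EGFP-positive and 4.45 ± 1.29 CPM in EGFP-negative cells (log2 fold change 1.96 ± 0.23), as was Npffr1, a receptor of RFamide peptides (1.90 ± 0.22). Oprl1, the nociceptin receptor, was lower (-0.75 ± 0.17), as was Gnrhr, at 0.175 ± 0.129 CPM in EGFP-positive against 1.95 ± 0.886 CPM in EGFP-negative cells. Gnrhr is also a gene of pituitary gonadotropes. It passed the filter through the EGFP-negative libraries where it is high. Its lower value is thus partly built into the filter, and the Gnrhr call is no independent support for the count of 3 lower. In mCherry-positive cells 2 of 28 were higher and 0 lower, beside 1.2% of all genes called. Cckbr stood at 13.0 ± 5.17 CPM in mCherry-positive and 2.42 ± 0.223 CPM in mCherry-negative cells (log2 fold change 2.42 ± 0.40, adjusted p 0.0349), and Trhr, which pituitary thyrotropes also express, at 4.46 ± 3.53 CPM in mCherry-positive against 0.0307 ± 0.0532 CPM in mCherry-negative cells. Trhr passed the filter through the mCherry-positive libraries where it is high. Its higher value is thus partly built into the filter, and the Trhr call is no independent support for the count of 2. With any 1 library left out, 0 to 1 receptors were called in this comparison, beside 0% to 1.17% of all genes. The Cckbr transcript was called higher in the positive cells of both sorts, while Cck itself was called in neither. Of 34 receptors, none differed between the reporter effects, where Adcyap1r1 was at -0.18 ± 0.32 and Ntsr2 at 0.62 ± 0.33. Between the sorts 6 of 34 were higher and 2 lower in the mCherry sort, beside 10.5% and 8.04% of all genes, among them Oprl1 (1.15 ± 0.21), Npy2r (1.66 ± 0.39), Npr2 (0.47 ± 0.11) and Oprm1 (2.29 ± 0.56), all 4 higher. Oprm1 was below the filter in the EGFP sort and entered this fit through the mCherry libraries where it is high. Its higher value is thus partly built into the filter, and the Oprm1 call is no independent support for the count of 6.

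Of the 16 genes for precursor processing and dense-core vesicles, 2 rose and 4 fell in EGFP-positive cells, beside 8.99% and 7.07% of all genes. Cpe, carboxypeptidase E, which trims the cut peptides and is also expressed by astrocytes, was higher (0.89 ± 0.08). The granins Chga, at 17.1 ± 2.39 CPM in EGFP-positive and 52.1 ± 1.40 CPM in EGFP-negative cells, and Scg2 (-1.32 ± 0.13) were lower, as was the convertase Pcsk2 (-1.28 ± 0.19). In mCherry-positive cells none of the 16 was called by edgeR, and Cpe and Scg3, the 2 of highest mean CPM, were at 0.75 ± 0.29 and 0.16 ± 0.21. The median log2 fold change of the 16 was 0.89 in this comparison, against 0.02 for all genes tested. When a single library was left out, 0 to 6 of the 16 were called, beside 0% to 1.17% of all genes. Scg2 was the 1 gene of this list that differed between the reporter effects, by 3.37 ± 0.74 with an adjusted p of 0.039, and no gene of the list was called for this difference when 1 of 10 of the 12 libraries was left out. Over all 12 such fits 0 to 7 genes of the list were called, beside 0.143% to 3.15% of all genes. Between the sorts 9 of the 16 were higher in the mCherry sort and 0 lower, beside 10.5% and 8.04% of all genes, with Cadps, Chgb (1.55 ± 0.32), Pcsk1 (1.92 ± 0.43) and Scg2 (1.63 ± 0.37) having the smallest adjusted p. Without mCherry-positive replicates 2 and 3, 2 of the 16 were called.

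Transcription factors known from peptide neuron development formed a list of 19. In EGFP-positive cells 1 was higher and 2 were lower of 11 tested, beside 16.1% of all genes called: Fezf2 was higher (1.02 ± 0.15), and Gsx1, which in mouse is needed for Ghrh neurons, was lower, at 29.0 ± 1.44 CPM in EGFP-positive against 62.5 ± 4.21 CPM in EGFP-negative cells, as was Nr5a1 (-3.09 ± 0.47), a factor of the ventromedial hypothalamus and of pituitary gonadotropes. Nr5a1, at 0.237 ± 0.0527 CPM in EGFP-positive and 2.23 ± 0.689 CPM in EGFP-negative cells, passed the filter through the EGFP-negative libraries. Its lower value is thus partly built into the filter, and the Nr5a1 call is no independent support for the count of 2 lower. In mCherry-positive cells 0 of 12 were called, and Arnt2 was at 0.35 ± 0.21. None of 14 differed between the reporter effects, where Arnt2 was at 0.22 ± 0.26. Between the sorts 1 of 14 was higher in the mCherry sort (Isl1, 1.09 ± 0.30) and 3 were lower (Gsx1, Fezf2 and Pou3f2), beside 18.5% of all genes called.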

How the data were processed

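The authors deposited 1 file of raw counts for each of 12 libraries, with whole reads per Ensembl gene identifier and no normalization. Per the submitters' processing notes, cutadapt 1.8, STAR 2.5.2b and HTSeq 0.6.1 were used on GRCm38. The strand setting and the annotation release are not given in the sources used here. Summary entries that name no gene (31.4% to 38.2% of counted reads) were left out. Symbols, positions and exon lengths came from GENCODE M21, which holds 48349 of the 48709 identifiers.

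CPM are counts for each megaread in genes, and CPM per kb divides by merged exon length. Genes were tested over the whole table with edgeR 4.0.16 in R 4.3.3 (TMM factors, filterByExpr at a minimum count of 10 and a total of 15, quasi-likelihood test, Benjamini-Hochberg adjustment, adjusted p under 0.05). Each reporter was fitted on its own 6 libraries, and the difference of the reporter effects and the mean difference between the sorts on all 12. The SE was derived from the F statistic (size of the log2 fold change over the root of F). Members below the filter were compared by exact permutation tests and exact binomial intervals at 95%. DESeq2 1.42.0, limma-voom (limma 3.58.1), other filters and scalings, a replicate block and left-out libraries were alternatives, and the scripts were tested on simulated data. Between replicates the chi-square per degree of freedom was 6.54 to 97.0, so no pair of files agreed within sampling noise.

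Every member is accounted for. Those with a mean of at least 5 CPM in a group or a call have their libraries given, and of each other list up to 4 called genes of smallest adjusted p, or 2 of highest mean CPM where none was called. Values of some genes that this rule takes are not reported here, which leaves 1 gene for the factors in 2 comparisons. Members and lists were chosen with earlier results of these data known. Npvf, Trh, Adcyap1, Agrp and Grp were given in more detail after their values were seen.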

Additional observations from a re-analysis of the deposited data

Results flagged for a closer look

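Scg2, the secretogranin II gene, was the 1 gene among the members and the receptor, processing and factor lists whose reporter effects differed by test, by 3.37 on the log2 scale (mCherry effect minus EGFP effect, adjusted p 0.039, edgeR). It stood at 258 ± 169 CPM in mCherry-positive and 58.9 ± 34.7 CPM in mCherry-negative cells, and at 23.0 ± 1.27 CPM in EGFP-positive and 61.8 ± 5.51 CPM in EGFP-negative cells (SD over 3 libraries). When a single library was left out, 0 to 7 genes of the processing list were called for this difference, beside 0.143% to 3.15% of all genes. No gene of the processing list was called for this difference by limma-voom, without mCherry-positive replicates 2 and 3, or when any 1 library other than mCherry-positive replicate 1 or mCherry-negative replicate 1 was left out.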

How the results depend on the processing

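The members called between EGFP-positive and EGFP-negative cells numbered 2 in the fit reported, 5 in DESeq2, 4 in limma-voom and 0 to 7 with 1 library left out. In mCherry-positive against mCherry-negative cells they numbered 0, 1 in DESeq2 and 0 with any library left out. For the difference of the reporter effects they numbered 0, 2 with no filter (Avp and Ucn3, beside 2.27% of all genes) and 0 to 1 with a library left out. Between the sorts they numbered 8, 4 in limma-voom, 1 without mCherry-positive replicates 2 and 3, and 4 to 9 with a library left out.

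Over all genes, calls in the mCherry comparison numbered 208, and 1476 in DESeq2, 778 with no filter, 361 with a stricter filter, 106 without mCherry-positive replicates 2 and 3, and 0 to 212 with 1 library left out. Those in the EGFP comparison numbered 2622, and 1137 to 5244 with a library left out. For the difference they numbered 261, and 894 in DESeq2, 675 with no filter, 167 without mCherry-positive replicates 2 and 3, and 27 to 591 with a library left out. Between the sorts they numbered 3350, and 1715 without mCherry-positive replicates 2 and 3, and 2246 to 3932 with a library left out. Members below the filter whose groups were apart numbered 0 in the mCherry sort (0 to 3 with a library left out) and 3 in the EGFP sort (3 to 7). The causes were not tested.

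Signs turned in the mCherry comparison for uncalled members. Without mCherry-positive replicates 2 and 3 the log2 fold changes were -2.40 for Avp, -1.33 for Cck, -1.97 for Gal, -0.53 for Nts and -0.30 for Nucb2, and the Gal difference between reporter effects was -1.12. With single libraries left out, Nucb2 ran from -0.09 to 0.31 (-0.06 without mCherry-positive replicate 3 and -0.092 without mCherry-negative replicate 1), Pnoc from -0.64 to 0.63 and Sst from -1.32 to 0.55. With TMM scaling the members summed to 137 CPM in mCherry-positive and 153 CPM in mCherry-negative cells, and to 101 CPM in EGFP-positive and 125 CPM in EGFP-negative cells, within the spread of the unscaled sums.

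Whether replicate numbers pair the samples is not in the labels, and a check did not settle it. Deviations of same-numbered positive and negative libraries correlated at 0.126, -0.0205 and 0.0327 in the mCherry sort and at 0.169, 0.000948 and 0.0656 in the EGFP sort. Positive replicate 1 correlated best with its own number in both sorts, but not every library did. With 3 libraries in a group, whose deviations sum to 0, such values cannot show that pairing is present or absent. With the replicate block, 4 members were called in the EGFP sort (Nmb, Nucb2, Penk and Sst, beside 20.9% of all genes) and 0 in the mCherry sort, and 343 of all genes in the mCherry sort. The contrast between the sorts could not be fitted with this block. Members under about 1 CPM rest on few reads, and the smallest difference that could be called for them was not measured.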
